A study of Mus musculus with 6 samples.

Results

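Stoml3, Slc24a4, Umodl1, Slc17a6, Nsg1 and Nptn, 6 genes for proteins of the membrane, the vesicles and the endosomes of mature olfactory sensory neurons outside the cyclic AMP cascade, were taken by name from the 31319 genes of a count table of the mouse main olfactory epithelium. The labels give C57BL/6 males aged 5 months and poly(A)-selected RNA. There were 3 libraries of mice with the genotype miR-200b/a KD (knockdown) and 3 of the NC group, whose columns are headed as controls. How the microRNAs were lowered, what the NC animals received and whether each library came from its own mouse are not stated by the sources used here, so the tests rest on library-to-library spread alone, and part of it may be technical.

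An olfactory sensory neuron sends a dendrite with cilia into the nasal mucus and an axon to the olfactory bulb. Odorant receptors on the cilia raise cyclic AMP, calcium enters through a cyclic nucleotide-gated channel, and the response ends as calcium is removed. Stoml3 encodes a stomatin-domain protein of the ciliary membrane, Slc24a4 the potassium-dependent sodium/calcium exchanger NCKX4 that extrudes calcium from the cilia, and Umodl1 the zona pellucida domain protein olfactorin. Slc17a6 encodes VGLUT2, which loads glutamate into synaptic vesicles of the axon terminals. Nsg1 encodes the endosomal protein NEEP21, which takes part in the recycling of neuronal receptors, and Nptn encodes neuroplastin, an immunoglobulin-family membrane protein that many cell types make and that serves as a subunit of plasma membrane calcium pumps.

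The libraries held from 15704791 to 17618540 counts. Counts at the targeted loci were 200, 87 and 84 for Mir200a in the NC libraries and 54, 3 and 52 in the KD libraries, and for Mir200b 76, 54 and 47 and 10, 0 and 28. A poly(A) library does not measure the mature microRNAs. KD-2 stood apart from the other libraries. Its 7 mature olfactory neuron markers, all of them detected in every library, summed to 55.3 counts per 1000000 (CPM), against 5801 to 8862 in the NC libraries, 2663 in KD-1 and 3279 in KD-3. Of the 6 supporting cell markers of the same epithelium, 5 were lowest in KD-2, where they summed to 104 CPM against 2991 to 7362 in the other libraries. The sixth, Cbr2, was highest there, at 3954 CPM against 1405 to 2932. Of the 5 respiratory ciliated markers 1, Ccdc39, was lowest in KD-2 (31.4 CPM against 37.9 to 76.2), and the other 4 were not. Fold changes of the 6 genes, the counts over related lists and the profile comparison are therefore also given without KD-2. In bulk tissue, fewer neurons and less RNA per neuron cannot be told apart.

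The sequences below show the windows around the start sites of 3 genes that were low in KD-2 and of Nptn, which was not. RefSeq promoters of build GRCm38.p6 (250 bases before to 50 after the start) matched 5 of the 6 genes, all but Nsg1. Of the 2 windows listed for Slc17a6, the upstream one is shown. Capitals mark matches, on either strand, to TAATGA or TAATTA, cores bound by homeodomain proteins, or to the Ebf (olfactory-1) palindrome TCCCNNGGGA with at most 1 mismatch in its fixed letters.
Stoml3 (chr3:53488457-53488756, + strand): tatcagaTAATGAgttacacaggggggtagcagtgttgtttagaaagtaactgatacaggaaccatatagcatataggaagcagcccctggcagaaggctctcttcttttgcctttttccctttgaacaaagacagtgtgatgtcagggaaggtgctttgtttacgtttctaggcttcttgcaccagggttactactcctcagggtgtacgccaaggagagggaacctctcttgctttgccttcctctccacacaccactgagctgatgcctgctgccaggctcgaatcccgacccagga
Umodl1 (chr17:30954433-30954732, + strand): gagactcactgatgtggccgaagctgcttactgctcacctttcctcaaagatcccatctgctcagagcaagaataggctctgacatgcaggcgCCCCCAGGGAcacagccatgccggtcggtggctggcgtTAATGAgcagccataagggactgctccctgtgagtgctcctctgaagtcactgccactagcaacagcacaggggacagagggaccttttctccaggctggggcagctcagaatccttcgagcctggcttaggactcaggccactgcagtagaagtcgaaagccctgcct
Slc17a6 (chr7:51621580-51621879, + strand): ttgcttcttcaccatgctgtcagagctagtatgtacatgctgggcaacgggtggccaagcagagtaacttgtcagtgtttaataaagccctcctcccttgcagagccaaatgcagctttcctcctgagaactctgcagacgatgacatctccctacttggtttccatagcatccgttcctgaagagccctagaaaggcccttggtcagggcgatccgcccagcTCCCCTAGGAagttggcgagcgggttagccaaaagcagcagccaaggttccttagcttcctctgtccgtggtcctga
Nptn (chr9:58581990-58582289, + strand): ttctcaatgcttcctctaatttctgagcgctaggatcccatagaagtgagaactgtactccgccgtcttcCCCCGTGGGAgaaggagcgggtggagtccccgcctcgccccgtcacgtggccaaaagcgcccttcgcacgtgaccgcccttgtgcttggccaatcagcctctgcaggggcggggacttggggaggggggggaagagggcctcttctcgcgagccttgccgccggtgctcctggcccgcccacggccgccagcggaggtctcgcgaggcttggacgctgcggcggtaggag

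The windows of Stoml3 and Umodl1 each held TAATGA, which 9.78% of 32851 RefSeq promoters of the same length hold. The palindrome with 1 mismatch was in the windows of Umodl1, Slc17a6 and Nptn, and in 16.5% of all. The exact palindrome (0.904% of all) was in none of the windows of the 5 genes. TAATTA (5.29% of all) was found once, in the downstream window of Slc17a6, which held TAATGA as well. The Slc24a4 window had no match. Base composition differed, with 27 CG dinucleotides and 66.7% G or C for Nptn, 14 and 62.7% for Slc24a4, 8 and 53.7% for Slc17a6, 7 and 57.7% for Umodl1, and 4 and 49.3% for Stoml3. The median over all promoters was 7 CG dinucleotides and 52.7%.

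The knockdown concerned 2 microRNAs, which repress transcripts that pair with bases 2 to 8, the seed, in capitals here. Their mature sequences (RefSeq, GRCm38.p6, - strand) and the single match among the 6 genes are shown, since a direct target would be looked for there.
miR-200b-3p (chr4:156055685-156055706): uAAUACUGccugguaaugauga
miR-200a-3p (chr4:156054911-156054932): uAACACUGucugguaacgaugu
Slc17a6 site (chr7:51669955-51669983, + strand): agcttatcttgCAGTGTTttgtgaaatgc

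Searched in each gene's longest 3′ UTR (GENCODE M21, GRCm38), 5 of the 6 genes had no match to either seed. Slc17a6 had 1 match to miR-200a, in capitals above, at base 606 of 1759. A match to either seed was present in 29% of 15779 tested genes with an annotated 3′ UTR. The UTRs of the 6 genes ran from 850 bases for Stoml3 to 3890 for Nptn.

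In 5 of the 6 genes the KD libraries had much lower values than the NC libraries, and Nptn differed little. Stoml3 (ENSMUSG00000027744, chromosome 3, 53488653 to 53508502, GRCm38) had 39376, 33937 and 23896 counts in NC libraries 1, 2 and 3, and 12125, 204 and 16161 in KD libraries 1, 2 and 3. KD-2 was far below all others, and the highest KD value lay below the lowest NC value. Normalised, that is 1834 ± 551 CPM for NC and 538 ± 462 for KD (mean ± SD of 3 libraries each, as for all such pairs here). Its log2 fold change was -1.77 (SE 1.18), which did not pass edgeR's quasi-likelihood test (adjusted p = 0.395 over 18444 tested genes). All 6 genes passed the filter on low counts, and 0 of the 6 passed the threshold of 0.05, as for all tested genes (0%).

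Umodl1 (ENSMUSG00000054134, chromosome 17, 30954640 to 31010710) had 22070, 16452 and 12268 NC counts and 6134, 31 and 8465 KD counts, in the same order of libraries. The same library was lowest, and the groups did not overlap. Its level was 963 ± 353 CPM for NC and 276 ± 243 for KD. The log2 fold change was -1.80, with SE 1.39 and an edgeR adjusted p of 0.448. Slc24a4 (ENSMUSG00000041771, chromosome 12, 102128733 to 102267091), the exchanger, had 1048, 852 and 559 NC counts and 375, 52 and 416 KD counts. KD-2 was again lowest, though nearer to the other KD libraries than for Stoml3 and Umodl1. The level was 46.5 ± 16.8 CPM for NC and 16.3 ± 10.7 for KD. The log2 fold change was -1.51, with SE 0.644 and an edgeR adjusted p of 0.28.

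Slc17a6 (ENSMUSG00000030500, chromosome 7, 51622006 to 51671119), the vesicular glutamate transporter, had 3248, 2197 and 1393 NC counts and 903, 3 and 1002 KD counts. KD-2 was almost without counts of this gene, and the NC libraries themselves spread from 78.1 to 200.3 CPM. The mean was 130 ± 63.1 CPM for NC and 36.1 ± 31.1 for KD, and the log2 fold change -1.85, with SE 1.34 and an edgeR adjusted p of 0.425. Nsg1 (ENSMUSG00000029126, chromosome 5, 38137192 to 38159907, - strand) had 9626, 9592 and 8122 NC counts and 3188, 166 and 4507 KD counts. Among the 5 genes it had the closest NC values relative to their mean, and KD-2 was the lowest library. The mean was 513 ± 72.0 CPM for NC and 149 ± 122 for KD, and the log2 fold change -1.78, with SE 0.92 and an edgeR adjusted p of 0.317. Exons of Nsg1 overlap Stx18 on the opposite strand, whose counts were 296 in KD-2 and 303 to 338 elsewhere. Whether the counting used strand is not stated by the sources used here, and reads of the shared stretch cannot be told apart.

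Nptn (ENSMUSG00000032336, chromosome 9, 58582240 to 58657955) had 3224, 3522 and 3278 NC counts and 3075, 2109 and 3056 KD counts. All 6 libraries were close together, including KD-2. The mean was 188 ± 10.01 CPM for NC and 170 ± 9.09 for KD, and the log2 fold change -0.14, with SE 0.139 and an edgeR adjusted p of 0.537. The groups did not overlap, but the highest KD value (179.6 CPM) and the lowest NC value (179.9 CPM) were nearly equal. Exons of Nptn overlap Rec114 on the opposite strand, which had at most 43 counts in any library. Counts per gene do not separate the neuroplastin isoforms.

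The median log2 fold change of the 6 genes was -1.78, against 0.01 over all tested genes. Without KD-2 it was -1.19, and without KD-2 and NC-1 -0.83, with medians over all genes of 0.01 and 0.02. In all 6 genes the 3 KD values lay below the 3 NC values, which held for 18.6% of all tested genes. DESeq2 on the same counts called 1.88% of the tested genes and 0 of these 6, with its smallest adjusted p at 0.167 for Slc24a4. In the authors' deposited table the unadjusted p was 0.0232 for Slc24a4, 0.038 for Nsg1, 0.0875 for Stoml3, 0.129 for both Umodl1 and Slc17a6 and 0.288 for Nptn. The log2 fold changes of the authors' deposited table ran from -1.88 for Slc17a6 to -0.17 for Nptn.

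**Figure D1:**
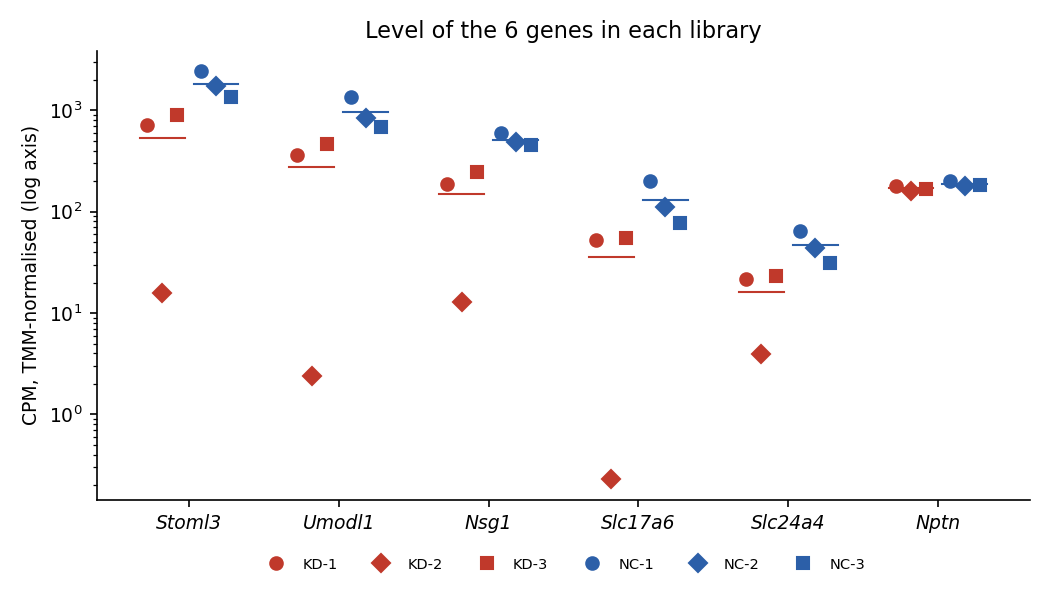
Normalised CPM (log axis) of the 6 genes in each library; KD libraries are red, NC libraries blue, and each line is the mean of 3 libraries. The points of KD-2 are the lowest by a wide margin for Stoml3, Umodl1, Nsg1, Slc17a6 and Slc24a4, from 15.6 CPM for Stoml3 to 0.23 for Slc17a6, while Nptn stands between 162 and 199 CPM in all 6 libraries.

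KD-1 and KD-3 held similar shares of the NC level for 5 genes that differ widely in abundance. Relative to the mean CPM of the NC libraries, Stoml3, Umodl1, Nsg1, Slc17a6 and Slc24a4 stood between 36.3% and 47.1% in KD-1 and between 42.4% and 49.3% in KD-3. Omp, the olfactory marker protein, stood at 38.2% and 49.6% in the same libraries. Adcy3, the adenylyl cyclase of the cilia, stood at 38% and 25.4%. The NC libraries were not alike either. The 5 genes ran from 116% to 154% of that mean in NC-1 and from 60% to 88.8% in NC-3. For Nptn the 3 KD libraries stood at 95.8%, 86.2% and 89.8%.

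In KD-2 the genes separated. Slc17a6 was at 0.177% of the NC mean (95% exact interval 0.0372 to 0.527, from 3 counts), Umodl1 at 0.247% (0.17 to 0.356), Stoml3 at 0.852% (0.748 to 0.99), Nsg1 at 2.48% (2.13 to 2.91) and Slc24a4 at 8.57% (6.47 to 11.4). Intervals cover counting error alone. Those of Slc17a6 and Umodl1 overlap, and those of Umodl1, Stoml3, Nsg1 and Slc24a4 do not. Omp was at 0.307% (0.262 to 0.364) and Adcy3 at 2.87% (2.53 to 3.3). Placed among all 18444 tested genes by the same KD-2 ratio, with 0.1 CPM added to both terms, the genes stood at percentile 0.108 (Slc17a6), 0.119 (Umodl1), 0.819 (Stoml3), 2.92 (Nsg1), 7.23 (Slc24a4) and 39 (Nptn). This order rests on 1 library.

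**Figure D2:**
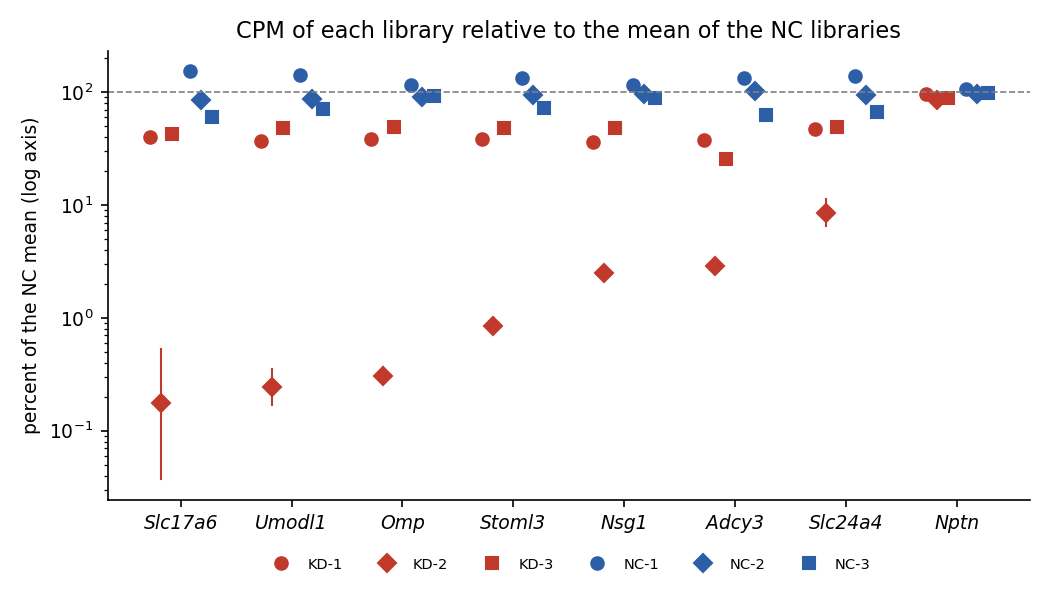
CPM of each library as a percent of the mean of the 3 NC libraries (log axis; the dashed line is 100%) for the 6 genes, Omp and Adcy3, with 95% exact counting intervals on KD-2. KD-1 and KD-3 lie between 25.4% and 49.6% for all genes but Nptn, while KD-2 runs from 0.177% for Slc17a6 to 86.2% for Nptn.

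Set against Omp within each library, 5 of the genes stood in KD-1 and KD-3 much as in the NC libraries. Per 1000 Omp counts there were 568, 511 and 386 counts of Stoml3 in the NC libraries, and 499 (KD-1) and 483 (KD-3). Both KD values lay inside the NC range. Umodl1 had 252 and 253 against 318, 248 and 198, and Slc17a6 37.2 and 30 against 46.8, 33.1 and 22.5, both again inside the NC range. Nsg1 had 131 and 135 against 139, 144 and 131, with an NC mean of 138 ± 6.63 (SD, n = 3). Slc24a4 had 15.4 and 12.4 against 15.1, 12.8 and 9.03, so that KD-1 was slightly above the highest NC value. Nptn had 126.5 (KD-1) and 91.4 (KD-3) against 46.5, 53 and 52.9, above every NC value.

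In KD-2, with 149 Omp counts, the same ratios were 20.1 for Slc17a6, 208 for Umodl1, 349 for Slc24a4, 1114 for Nsg1, 1369 for Stoml3 and 14154 for Nptn. Umodl1 stayed inside the NC range and Slc17a6, on 3 counts, was just below it, while the other 4 genes were above it. These ratios were not tested.

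**Figure D3:**
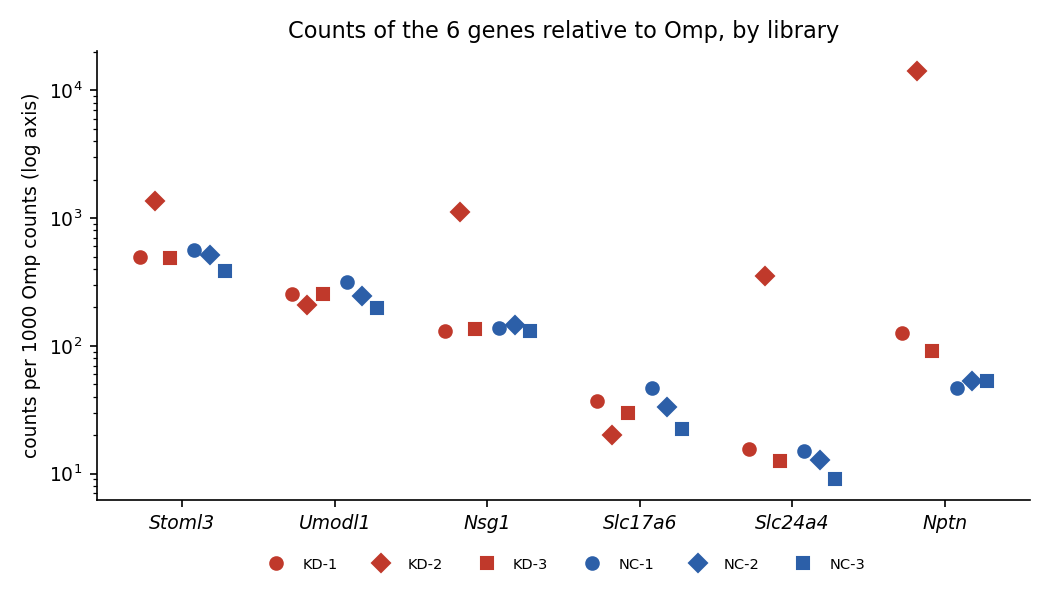
Counts of each of the 6 genes per 1000 Omp counts in the same library (log axis), KD in red and NC in blue. For Stoml3, Umodl1, Nsg1, Slc17a6 and Slc24a4 the circles and squares of KD-1 and KD-3 lie at the level of the NC libraries, whereas KD-2 (red diamonds) is above them for Stoml3, Nsg1, Slc24a4 and Nptn.

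Leaving out KD-2 made the differences smaller and the errors much smaller. The log2 fold changes of the 5 genes then ran from -1.25 for Slc17a6 to -1.03 for Slc24a4 (SE 0.25 to 0.413), against -1.85 to -1.51 over all 6 libraries (SE 0.644 to 1.39). Unadjusted p were 0.003 for Nsg1, 0.0171 for Stoml3, 0.019 for Umodl1, 0.0199 for Slc24a4 and 0.0243 for Slc17a6. An unadjusted p under 0.05 with a lower KD value was thus reached by 5 of the 6, and by 8.69% of all tested genes in that fit. Adjusted edgeR p were 0.298 to 0.336, so none passed. Nptn stood at -0.08 (SE 0.167). Without both KD-2 and NC-1 the 5 genes ran from -1.10 for Nsg1 to -0.71 for Slc24a4 (adjusted p 0.233 to 0.28), and Nptn was at -0.04.

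With the mean log2 CPM of 11 odour transduction genes as a covariate, the group term was much smaller for the 5 genes. The log2 fold change was 0.0356 (SE 0.276) for Stoml3, 0.39 (SE 0.313) for Umodl1, 0.52 (SE 0.28) for Slc17a6, -0.38 (SE 0.346) for Nsg1, -0.46 (SE 0.296) for Slc24a4 and -0.08 (SE 0.16) for Nptn, with adjusted p from 0.853 to 0.989. The sign turned for Stoml3, Umodl1 and Slc17a6. The covariate itself was 8.84, 8.41 and 8.17 in the NC libraries and 7.02, 1.45 and 7.48 in the KD libraries, so that the groups did not overlap. The mRNA level of these 11 genes and group therefore cannot be told apart in these 6 libraries.

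**Figure D4:**
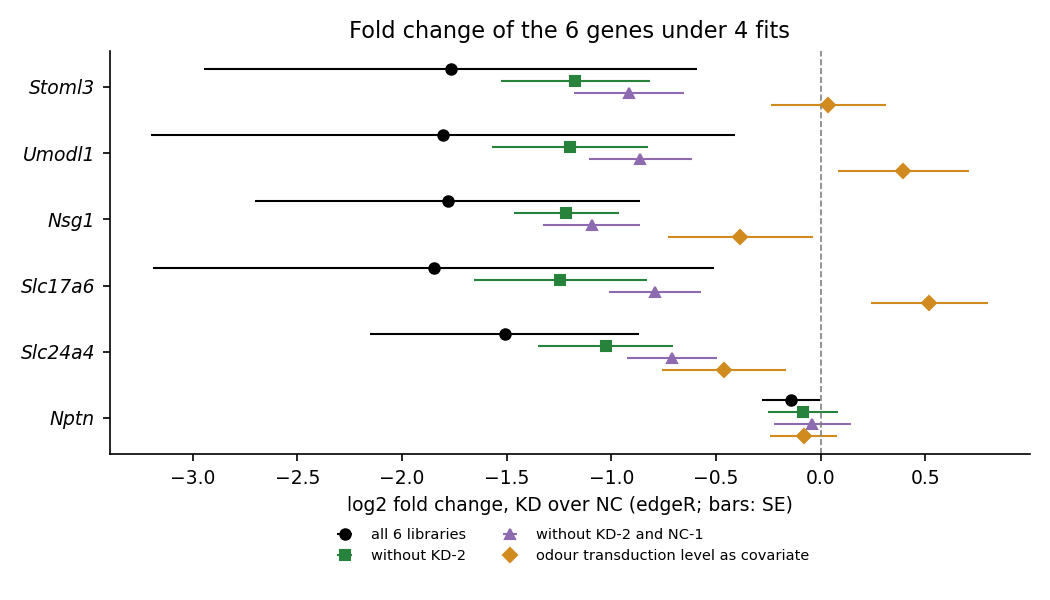
Log2 fold change of KD over NC with its standard error (bars) from edgeR for the 6 genes, over all 6 libraries, without KD-2, without KD-2 and NC-1, and with the odour transduction level as a covariate. Stoml3 moves from -1.77 to -1.17, -0.92 and 0.0356 across these fits, while Nptn stays between -0.14 and -0.04.

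Levels of different genes were compared as CPM per kilobase of exon. In the NC libraries Stoml3 was the most abundant of the 6, at 853 ± 256, rank 41 of 18430 genes. Umodl1 followed at 185 ± 68 (rank 179) and Nsg1 at 160 ± 22.4 (rank 220). The values of this pair overlap, and with the longest transcript as length Nsg1 stood at 199. Nptn was at 30.4 ± 1.62 (rank 1508) and Slc17a6 at 24.1 ± 11.7 (rank 1970), with overlapping values. Slc24a4 was lowest at 10.3 ± 3.73 (rank 4968). In KD-2 the order was another, with Nptn highest at 26.2, then Stoml3 at 7.27, Nsg1 at 3.96, Slc24a4 at 0.881, Umodl1 at 0.457 and Slc17a6 at 0.0426.

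The profile over the 6 libraries was compared with that of 13379 genes of at least 5 CPM, as the root mean square difference of log2 CPM centred on each gene's own mean. Within the 6 genes Umodl1 and Slc17a6 were the closest pair, at 0.145, and Umodl1 and Nptn the farthest, at 2.99. The genes nearest to Stoml3 were the GABA-B receptor subunit gene Gabbr2 (0.0683), Clstn2 (0.0878) and the potassium channel gene Kcna5 (0.108). Nearest to Umodl1 were the contactin gene Cntn4 (0.0682), Lingo2 (0.0866) and Cnga4 (0.103), a subunit of the olfactory cyclic nucleotide-gated channel. Nearest to Nsg1 were the channel genes Hcn4 (0.0789) and Scn8a (0.0891) and the cytoskeletal gene Dmtn (0.102). Slc17a6 had Fgf12 (0.11), Umodl1 and Lingo2 (0.159) beside it, and Slc24a4 had Acsm3 (0.0935), Tshz2 (0.0986) and Gm29170 (0.0995).

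Within 0.25 of each profile there were 11 genes for Slc17a6, 15 for Umodl1, 52 for Stoml3, 55 for Nsg1 and 83 for Slc24a4. For Nptn there were 5155, the nearest being Akap1 (0.0253), Dtymk (0.0268) and Orc5 (0.0319). These numbers take no account of counting error. In KD-2 Slc17a6 had 3 counts, Fgf12 4 and Lingo2 0, so a small number does not by itself show that a profile is rare. All profiles share the same 6 libraries, and KD-2 decided which genes lay nearest. Over the other 5 libraries, an alternative chosen after seeing the data, Stoml3 kept 1 of its 3 nearest genes (Gabbr2, at 0.0217), Nptn kept 2, and the other 4 genes kept 0. Within the 6 genes Stoml3 and Umodl1 were then the closest pair, at 0.0687, and Umodl1 and Slc17a6 stood at 0.155. The numbers of genes within 0.25 were then between 256 (Slc17a6) and 587 (Slc24a4) for the 5 genes, and 6313 for Nptn.

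Genes of the same families did not follow 1 course. None of the related genes passed the edgeR threshold, and counts below are of fitted log2 fold changes below or above 0, beside 49.4% below 0 and a median of 0.01 over all tested genes. Of the 7 other tested sodium/calcium exchangers 6 were below 0 (median -0.19), and 4 without KD-2. Slc24a2, the paralog NCKX2, had 2485, 1984 and 1132 NC counts and 670, 1 and 748 KD counts. Its lone KD-2 count was 0.0722% of the NC mean, and its log2 fold change was -1.98, or -1.375 without KD-2. The sodium/calcium exchanger gene Slc8a1 stood at 3.49 ± 2.28 CPM against 13.5 ± 7.72, and Slc24a5 at 1.62 ± 0.419 against 2.90 ± 0.825. Slc8b1, the mitochondrial exchanger, was on the other side of 0 at 34 ± 7.66 CPM against 14.8 ± 6.08 (log2 fold change 1.20, adjusted p = 0.276).

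Neuroplastin and its relative basigin bind plasma membrane calcium pumps, and 3 of the 5 other tested genes of that list were below 0 (median -0.16), or 4 when scaled by total counts, where Emb changed sides. Without KD-2 it was again 3 of the 5 (median -0.07). The pump gene Atp2b2 had 137, 57 and 57 NC counts and 18, 9 and 19 KD counts. Its log2 fold change was -2.37, with SE 0.537 and an edgeR adjusted p of 0.276. Atp2b1 and Atp2b4, present at higher levels, stood at 101 ± 16.3 against 113 ± 41.4 CPM and 47.9 ± 5.69 against 56 ± 9.62. Bsg stood at 698 ± 271 against 521 ± 157 CPM and Emb, the third gene of the family, at 210 ± 15.5 against 204 ± 15. The log2 fold change of Bsg was 0.42 (SE 0.365) over all 6 libraries, and 0.08 (SE 0.306) without KD-2. The level of Nptn in KD-2, close to that of the other libraries, was thus shared by Emb at 94.3% of the NC mean, while Bsg was at 194%.

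Among 8 other genes of the stomatin and mechanosensitive channel list 6 were below 0 (median -0.45), and 5 without KD-2. Stom, stomatin itself, had 49264, 38546 and 28089 NC counts and 18131, 3203 and 18683 KD counts. KD-2 was again lowest, at 11.2% of the NC mean beside 0.852% for Stoml3. In NC its level per kilobase, 776, was close to that of Stoml3. Stoml1 stood at 48.8 ± 1.26 against 67.3 ± 11.9 CPM and the acid-sensing channel gene Asic1 at 24.8 ± 15.4 against 57.7 ± 20.6, while Piezo1 stood at 55.4 ± 11 against 34.2 ± 13.2. Of the 5 other tested zona pellucida domain genes 2 were below 0 and 3 above (median 0.23), with the same counts without KD-2 (median 0.25). Those named by the rule were Gp2 at 188 ± 101 CPM against 85.1 ± 13.9, Eng, an endothelial TGF-beta co-receptor, at 126 ± 47.5 against 67.9 ± 24.9, and Tectb at 0.79 ± 0.753 against 1.60 ± 0.477.

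In the list of the Nsg family and endosomal recycling 8 of 9 other genes were below 0 (median -0.48), and all 9 when scaled by total counts, where Sorl1 changed sides. Without KD-2 it was again 8 of 9 (median -0.32). Nsg2 and Caly are paralogs of Nsg1. Nsg2 had 364, 25 and 482 KD counts against 933, 1096 and 1129 (log2 fold change -1.82, SE 0.802, and -1.28, SE 0.182, without KD-2), and Caly had 49, 4 and 114 against 123, 203 and 215 (log2 fold change -1.65, SE 0.866, and -1.105, SE 0.431, without KD-2). In KD-2 Nsg2 was at 3.25% and Caly at 3.06% of the NC mean, beside 2.48% for Nsg1. The other genes of the list differed less, with Grip1 farthest from 0 among them at a log2 fold change of -0.92 (SE 0.305). Grip1 stood at 14.1 ± 5.22 CPM against 26.7 ± 4.30, the syntaxin gene Stx12 at 72.3 ± 16.9 against 107 ± 26.8 and Rab11a at 64.4 ± 12.3 against 72.9 ± 12.7.

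Of 6 tested vesicular transporter genes, Slc17a6 was below 0 and the other 5 were above (median of those 5, 0.72), or 4 when scaled by total counts, where Slc18a2 changed sides. Total-count scaling moved the median of all genes to -0.14. Without KD-2 those 5 were again above 0 (median 0.61). Slc17a9, a vesicular nucleotide transporter, had 17.6 ± 6.11 CPM for NC and 31 ± 7.23 for KD, and Slc18a1, a vesicular monoamine transporter, 2.26 ± 0.397 and 3.71 ± 0.772. The other vesicular glutamate transporters were scarce. Slc17a7 (VGLUT1) had 2 to 7 counts in KD libraries and 4 to 18 in NC libraries, and Slc17a8 (VGLUT3) had 44, 10 and 10 against 13, 6 and 15. Slc17a6 thus had more counts than both of them in every library but KD-2, where it had 3 against 2 and 10.

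The proteins that work beside VGLUT2 at nerve terminals had KD values on the same side as Slc17a6. All 12 of the nerve terminal list were below 0 (median -1.69), and in 11 the groups did not overlap (18.6% of all tested genes had non-overlapping groups with KD below NC). Snap25, a SNARE protein gene, had 1090, 8 and 1341 counts against 3874, 3042 and 2180, and the calcium sensor gene Syt1 had 897, 8 and 1359 against 2972, 2870 and 2105. KD-2 was at 0.356% and 0.41% of the NC mean for these genes. Vamp2, the gene of a vesicle SNARE protein, was at 52%, with a log2 fold change nearer to 0 (-0.67). Without KD-2, 11 of the 12 were below 0 (median -1.16). Markers of olfactory bulb projection neurons, which also use vesicular glutamate transporters, summed to 27.4 to 81.7 CPM in KD and 128 to 205 in NC. Of the 6 listed symbols 5 were found by GENCODE symbol, all 5 detected in every library. In every library but KD-2 most of that sum was 1 gene, Cdhr1 (49.6, 11.8 and 63.3 CPM in KD, 176, 100 and 102 in NC). All KD values lay below all NC values in 2 of the 5. Another of these markers, Tbx21, did not follow the sum, with 51, 27 and 33 counts in KD and 6, 18 and 30 in NC. It reached at most 2.98 CPM, and which cells held it was not tested. The part of these neurons in the Slc17a6 values was not tested.

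**Figure D5:**
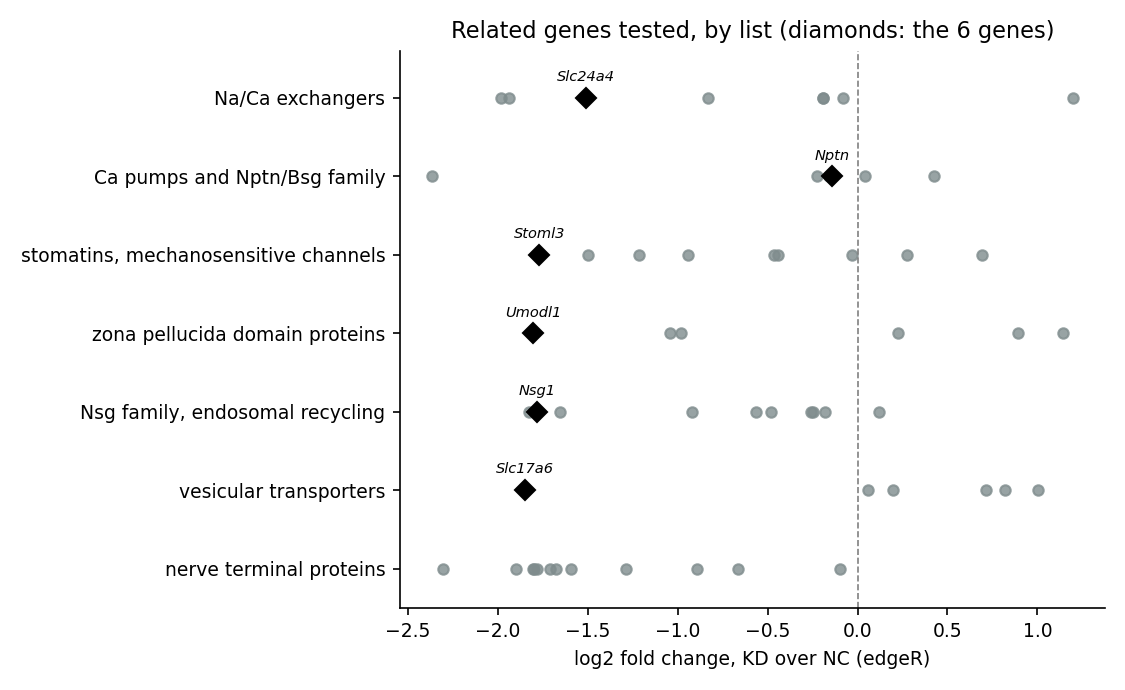
Fitted log2 fold change of KD over NC (edgeR) for the tested genes of 7 related lists, 1 point per gene, with the 6 genes as black diamonds. Slc17a6 lies at -1.85 while the other 5 vesicular transporters are above 0 (4 when scaled by total counts), and Nptn lies at -0.14 among the calcium pump genes.

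Markers of other cell types that were compared beside these genes differed in direction. The 5 horizontal basal cell markers summed to 628 to 994 CPM in KD and 178.5 to 482 in NC. The 5 respiratory ciliated markers summed to 560 to 633 against 417 to 555 CPM, but did not share 1 direction. Foxj1 was at 245.5, 355 and 304 CPM in KD and 137, 239 and 237 in NC. Ccdc39 was at 39.9, 31.4 and 41.6 CPM in KD and 76.2, 66.8 and 37.9 in NC. Values of Ccdc39, Dnah5, Tekt1 and Rsph1 overlapped between the groups. Plasma cell markers ranged from 31066 to 73577 CPM in KD and from 5798 to 45405 in NC, the lowest being NC-1. Immature neuron markers summed to 35.8 to 401 CPM in KD and 536 to 826 in NC, with all 6 detected in every library. All KD values lay below all NC values in 4 of the 6, but not in Gng8 and Tubb3. The largest part of the sum was Ncam1 (125.5, 27.9 and 138 CPM in KD, 384, 257 and 220 in NC). All 6 supporting cell markers were detected too, at 4058 to 7252 against 7414 to 8768 CPM, a sum that in KD-2 was nearly all Cbr2. Without Cbr2 the KD libraries held 2991, 104 and 4320 CPM and the NC libraries 7362, 5067 and 4667. Brain glia markers lay at 63.3 to 67.25 against 63.3 to 74.75 CPM, with Mog at 0 in KD-2, KD-3, NC-2 and NC-3. For vomeronasal neurons, which share Umodl1, 3 of 5 markers were found by GENCODE symbol, at 459 to 598 against 373 to 510 CPM. Most of that sum was Gnai2, a G protein gene (353.5, 551 and 357 CPM in KD, 115, 229 and 347 in NC). Gnao1 ran the other way, at 105, 46 and 132 CPM in KD and 258, 203 and 162.5 in NC, and the receptor gene Vmn2r1 had at most 6 counts and 0 in KD-3 and NC-2. The part of these cell types in the values of the 6 genes was not tested.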

How the data were processed

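Raw counts per gene for 6 libraries came from 1 table deposited by the authors, which also holds their mean signal (normalised counts over all libraries), log2 fold change and unadjusted p-value, per the file headers. The submitters' processing notes list, without roles, HTSeq 0.6.0, DESeq, DESeq2, TopHat2, HISAT2 2.1.0, Bowtie2 2.2.3 and the build GRCm38. Annotation release and strand setting are not stated by the sources used here. Genes were matched to GENCODE M21 by ID (31251 of 31319), which gave symbols, positions and exon lengths.

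KD was compared with NC by edgeR 4.0.16 (R 4.3.3): TMM factors, the default filter on low counts, the quasi-likelihood test, two-sided, Benjamini-Hochberg adjustment over 18444 tested genes, threshold 0.05. CPM were TMM-normalised, and log2 CPM used a prior count of 2. Each SE is the absolute log2 fold change over the square root of F. Alternatives used DESeq2 1.42.0, limma 3.58.1 (voom), other scalings and fewer libraries. The scripts were tested on simulated data without an outlying library, which does not show how the tests perform with one such as KD-2. Total counts ran from 15704791 to 17618540. The SE rest on the spread between libraries, while exact intervals, at 95%, cover counting error alone.

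The 6 genes and all lists were chosen with earlier results of these data known. By rule, named genes are the 6, Omp, Adcy3, up to 3 genes of each related list with the smallest p and the 3 nearest profiles. Slc24a2, Atp2b1, Emb, Piezo1, Caly, Rab11a, Slc17a7, Slc18a2, Sorl1, Snap25, Syt1, Vamp2, the single markers, the targeted Mir200a and Mir200b, the overlapping Stx18 and Rec114 and the chromosomal neighbours were named after their values were seen. Genes that the rule picks from the nerve terminal list enter its counts and are not reported singly here.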

Additional observations from a re-analysis of the deposited data

How the results depend on the processing

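Of 84 member fold changes under alternatives, 81 kept their sign, and none passed the threshold of 0.05 (smallest adjusted p 0.167, DESeq2). The 3 that turned were those with the odour transduction level as a covariate, Stoml3 (0.0356), Umodl1 (0.39) and Slc17a6 (0.52). Over all genes, 347 were called by DESeq2, 3 without KD-2 and NC-1, and 0 elsewhere (3310 genes at an unadjusted p under 0.05 in the edgeR test of all 6 libraries); the cause was not tested.

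Leaving out 1 library at a time gave log2 fold changes of -1.83 to -1.03 for Slc24a4, -2.34 to -1.17 for Stoml3, -2.41 to -1.20 for Umodl1, -2.36 to -1.22 for Nsg1, -2.29 to -1.25 for Slc17a6 and -0.19 to -0.08 for Nptn. Limma-voom gave -3.64 for Umodl1, -3.39 for Slc17a6 and -3.13 for Stoml3. With the replicate block the 6 genes ran from -2.82 (Umodl1) to -0.14 (Nptn), with 0 genes called. Whether the shared numbers pair the libraries is not known. Deviations from the group means correlated across genes at 0.305, 0.101 and -0.257 for numbers 1 to 3, and KD-3 correlated best with NC-1. These correlations cannot decide it, since each group mean rests on 3 libraries and KD-2, which stood apart, enters every KD deviation. With the longest transcript as length, levels per kilobase were 199 for Nsg1 in NC, and 37.5 in KD and 41.4 in NC for Nptn, since fewer bases are then counted.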

Other observations

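The 6 genes lie on 6 chromosomes, and their nearest tested protein-coding neighbours lay on both sides of 0. Of the 12 neighbours 6 had a fitted log2 fold change below 0 and 6 above (median -0.05), and none passed the edgeR threshold. Beside Stoml3, Proser1 had a mean of 48.5 ± 5.31 CPM for NC and 38.5 ± 2.82 for KD (SD over 3 libraries), and Frem2 16.6 ± 1.94 and 7.39 ± 5.60. Rin3, next to Slc24a4, stood at 41.4 ± 7.35 against 24.4 ± 7.91 CPM. The neighbour of Nptn at 165457 bases, Hcn4, stood at 13.2 ± 10.8 against 47.6 ± 10.3 CPM. In KD-2 it was at 2.41% of the NC mean, where Nptn was at 86.2%. Hcn4 was also the gene with the profile nearest to Nsg1, which lies on another chromosome.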
